A study of Mus musculus with 4 samples.

Results

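The 51 genes described here encode chromatin remodellers, histone modifiers, DNA methylation enzymes and the insulator protein CTCF. They were taken by name, with earlier results of these data known, so comparisons with all genes below are descriptions and no tests. A peak of an RNA immunoprecipitation was assigned to a gene when its summit lay between the gene's annotated start and end. The annotation was GENCODE M21, build GRCm38. The 3 peak lists held 19866 peaks, of which 537 had their summit in a gene of the list. The IGF2BP2 list contributed 208 of 7069 peaks (2.94%), that of YTHDF2 99 of 2834 (3.49%) and that of YTHDC1 230 of 9963 (2.31%). GENCODE M21 holds 22028 protein-coding genes, which serve as the background.

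The cells were mouse bone marrow cells that lack lineage markers and carry c-Kit (lin-ckit+ in the labels). The labels name them LIC without spelling it out, the series title speaks of leukaemia stem cells, and no oncogene, strain, age or number of animals is given in the sources used here. They were grown with mouse IL3, IL6 and SCF, and every library shares this culture. Each of the IGF2BP2, YTHDF2 and YTHDC1 antibodies gave 1 library, and 1 further library was the input. With 1 library per reader no difference between readers or genes could be tested over replicates, and the exact binomial 95% intervals below cover counting error only. These intervals treat peaks as independent, although some genes held many peaks, so they may be too narrow. The lists hold no depth and no expression level, so the number of peaks in a gene cannot be told apart from how much of its RNA the cells held.

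N6-methyladenosine (m6A) is a methyl mark set on RNA while it is transcribed, and reader proteins bind RNA that carries it. IGF2BP2 is known for stabilising cytoplasmic mRNA, YTHDF2 for recruiting deadenylation and decay factors, and YTHDC1 for acting in the nucleus on splicing, export and chromatin-associated RNA. Chromatin remodellers use ATP to slide, eject or exchange nucleosomes, while histone methyltransferases, acetyltransferases, deacetylases and demethylases write or remove the marks that decide which remodellers and transcription factors can bind. Many of these genes are mutated or required in blood cancers.

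The sequences at strong places that all 3 readers shared come first, since later values refer to them. Each run below is spliced coding sequence on the gene's strand, 5' to 3', with 50 bases on either side of the summit. Capitals mark in-frame codons that start with GA, which are the 4 codons for glutamate and aspartate (a codon cut by the end of the window is marked for the bases inside it). The places are those with the highest lowest rank of pileup over the 3 lists, 1 per gene, in 8 genes, among places whose highest summit lies in coding sequence. The codon measure was chosen after these windows had been seen.
Baz1a: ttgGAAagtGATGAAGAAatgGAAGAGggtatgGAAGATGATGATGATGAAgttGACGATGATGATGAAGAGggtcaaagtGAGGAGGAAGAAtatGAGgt
Baz2b: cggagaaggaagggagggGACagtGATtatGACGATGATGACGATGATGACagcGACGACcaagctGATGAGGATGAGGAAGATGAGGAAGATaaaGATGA
Bptf: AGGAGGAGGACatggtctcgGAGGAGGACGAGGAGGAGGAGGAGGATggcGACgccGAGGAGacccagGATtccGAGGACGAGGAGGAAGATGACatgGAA
Brd2: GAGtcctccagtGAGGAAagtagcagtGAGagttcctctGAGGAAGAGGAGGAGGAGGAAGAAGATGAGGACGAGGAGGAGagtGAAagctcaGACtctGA
Arid1b: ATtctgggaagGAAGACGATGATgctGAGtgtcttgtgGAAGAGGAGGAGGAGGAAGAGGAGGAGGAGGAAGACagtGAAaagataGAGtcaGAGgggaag
Kmt2d: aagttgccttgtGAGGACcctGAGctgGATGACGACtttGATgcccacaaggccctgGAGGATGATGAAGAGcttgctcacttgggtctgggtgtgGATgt
Chd4: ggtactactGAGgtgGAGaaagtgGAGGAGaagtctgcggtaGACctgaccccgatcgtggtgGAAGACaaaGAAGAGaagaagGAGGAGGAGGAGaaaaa
Smarca4: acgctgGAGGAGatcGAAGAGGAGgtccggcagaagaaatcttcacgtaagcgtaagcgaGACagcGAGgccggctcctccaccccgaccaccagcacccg

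The Baz1a window (chr12:54900042-54900142, minus strand, exon 23 of 27) consisted of GA codons for 69.7% of its codons, against 17.3% over the whole coding sequence of the gene. The Baz2b window (chr2:59920332-59920432, minus strand, exon 23 of 35) reached 63.6% against 15.2%. Bptf (chr11:107131386-107131486, minus strand, exon 1 of 30) had 72.7% against 13.3%, the highest share of the 8. Acidic stretches of this kind were also printed for Brd2 (chr17:34113972-34114072, minus strand, exon 9 of 13) with 60.6% against 13.2%. Arid1b (chr17:5341517-5341617, plus strand, exon 20 of 20) had the same 60.6% in the window against 8.28% over its coding sequence. In Kmt2d (chr15:98850413-98850513, minus strand, exon 35 of 55) the share was 39.4% against 10.8%. The Chd4 window runs across 2 splice junctions on the plus strand of chromosome 6, from base 125122282 over 125122477-125122548 to 125122818-125122845, around a summit in exon 34 of 39, and had 39.4% against 17.4%. The YTHDF2 summit of that Chd4 place lay 16 nt inside intron 34, and its IGF2BP2 summit at base 125122270 in exon 33. Both thus lay outside the printed sequence, which holds the YTHDC1 summit only. Smarca4 (chr9:21686037-21686137, plus strand, exon 29 of 34) had the lowest share of the 8, 21.2% against 14.3%. Only 4 of the 8 windows held GGAC, the core of the m6A consensus: Bptf 3 times, and Kmt2d, Brd2 and Baz2b 1 time each.

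Nearly all of the genes were in at least 1 list. YTHDC1 had a peak in 48 of 51 genes (94.1%), IGF2BP2 in 43 (84.3%) and YTHDF2 in 35 (68.6%). Over all protein-coding genes the shares were 19.9% for YTHDC1, 12.8% for IGF2BP2 and 7.26% for YTHDF2. All 3 readers had a peak in 35 of the 51 genes (68.6%), against 5.10% of protein-coding genes. IGF2BP2 and YTHDC1 without YTHDF2 had peaks in 8: Chd8, Setd1b, Dot1l, Suz12, Asxl1, Asxl2, Ep300 and Ctcf, against a background of 4.43%. YTHDC1 alone had a peak in 5: Smarcd1, Smarcb1, Arid1a, Eed and Hdac1, which is near the background of 9.41%. No gene had a peak of IGF2BP2 alone (background 2.70%) or of YTHDF2 alone (0.622%). Setd2, Ezh2 and Tet2 had no peak of any reader, as did 76.2% of protein-coding genes. The genes with YTHDF2 peaks were thus all among those with IGF2BP2 peaks, and those with IGF2BP2 peaks all among those with YTHDC1 peaks. This nesting moved with list length. With each list cut to its 2834 peaks of highest −log10 q, 23 genes had all 3 readers, 5 YTHDF2 alone and 1 IGF2BP2 alone. IGF2BP2 then had a peak in 28 of the 51 genes, YTHDF2 in 35 and YTHDC1 in 32. Over all protein-coding genes the shares were then 6.02%, 7.26% and 7.93%.

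The 51 genes are long. Their median coding sequence was 5148 nt against 1179 nt over all protein-coding genes, their median gene length 66.7 kb against 17.3 kb, and their median exon number 23 against 7. Per 100 kb of exon they held 29.4 IGF2BP2, 14.0 YTHDF2 and 26.1 YTHDC1 summits, against 4.40, 1.92 and 4.68 over all protein-coding genes. Per 100 kb of intron they held 1.39, 0.669 and 2.51 against 0.181, 0.0626 and 0.375. The density of summits was thus higher in both compartments. The 3 genes without any peak had coding lengths of 2238 to 7611 nt, and the 5 with YTHDC1 peaks alone of 1155 to 6861 nt.

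Pileup, the height of the overlapping fragments at a summit, and fold, that height over the local background, are the authors' values and describe peaks within a list only. For IGF2BP2 the median pileup in the 51 genes was 7, for YTHDF2 6 and for YTHDC1 8, against 5, 5 and 6 over all peaks in protein-coding genes. The median fold was 7.75, 6.38 and 7.02 against 5.92, 5.47 and 6.03. A pileup of 3 or less stood behind 14.9%, 25.3% and 16.5% of the peaks in the 51 genes, against 28.4%, 34.1% and 22.5% over all protein-coding genes.

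**Figure D1:**
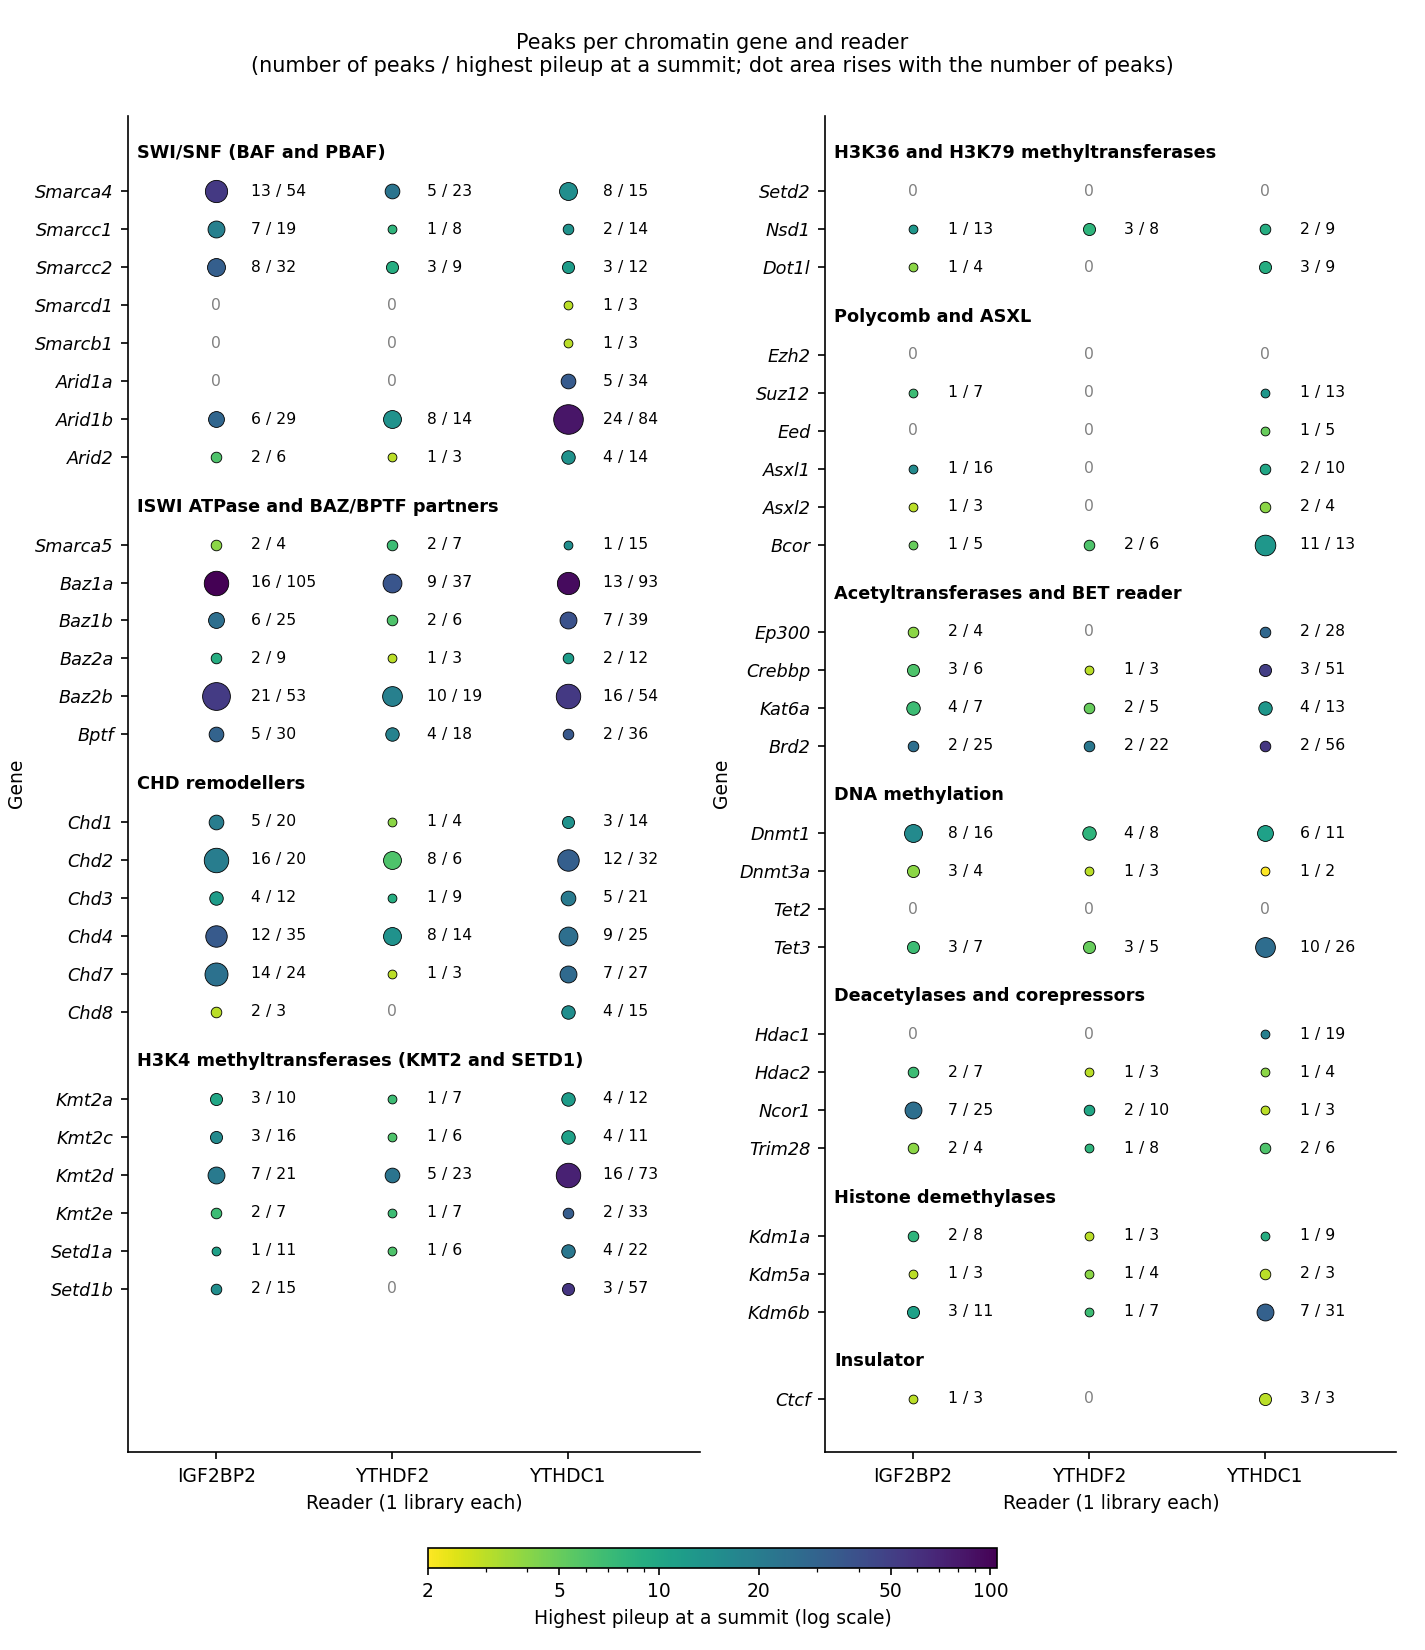
Each row is a gene, grouped by complex, and each column a reader (1 library each); the dot's area rises with the number of peaks, its colour gives the highest pileup at a summit on a log scale, and the numbers beside it give both. Baz1a (pileup 105, 37 and 93) and Baz2b (21, 10 and 16 peaks) stand out in all 3 columns, Arid1b (24 peaks) in that of YTHDC1, and the Polycomb genes other than Bcor (11 YTHDC1 peaks) have at most 2 peaks per reader.

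The SWI/SNF genes encode subunits of the BAF and PBAF complexes, which eject and slide nucleosomes. All 8 had YTHDC1 peaks, and 5 had IGF2BP2 and YTHDF2 peaks. Smarca4, the ATPase subunit BRG1, had 13 IGF2BP2, 5 YTHDF2 and 8 YTHDC1 peaks, mostly in coding sequence. Its strongest peak, in exon 29 under the window printed above, had a pileup of 54 and a fold of 49.0 for IGF2BP2, 23 and 21.9 for YTHDF2, and 11 and 11.6 for YTHDC1. The fold of 49.0 was the highest of any IGF2BP2 peak in the 51 genes. The scaffold subunit genes Smarcc1 and Smarcc2 had 7 and 8 IGF2BP2 peaks with highest pileups of 19 and 32, and 1 to 3 peaks of each other reader. The core subunit genes Smarcd1 and Smarcb1 had 1 YTHDC1 peak each with a pileup of 3.

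Arid1a and Arid1b encode alternative DNA-binding subunits of BAF, and their peaks differed. Arid1a (chr4:133679008-133756769) had 5 YTHDC1 peaks and none of the other readers, the strongest in coding sequence of exon 1 with a pileup of 34. Arid1b (ENSMUSG00000069729.14, chr17:4994332-5347656, plus strand) had 24 YTHDC1, 8 YTHDF2 and 6 IGF2BP2 peaks, and only 3, 1 and 2 of these were exonic. Its strongest YTHDC1 peak lay in intron 1 at chr17:5011497-5011933, 15185 nt from the nearest exon, with a pileup of 84 and a fold of 34.3. YTHDF2 had a pileup of 13 at that place and IGF2BP2 of 10. At the acidic stretch in exon 20 the pileup was 51 for YTHDC1, 29 for IGF2BP2 and 14 for YTHDF2. The second strongest IGF2BP2 peak lay in intron 4 (chr17:5158577-5159371), 31185 nt from an exon, with a pileup of 28, and at another intronic place near exon 1 the pileup was 14 for IGF2BP2 and YTHDF2 and 21 for YTHDC1. Arid2, the PBAF counterpart, had 2, 1 and 4 peaks (IGF2BP2, YTHDF2, YTHDC1) with pileups of at most 6, 3 and 14.

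ISWI remodellers space nucleosomes, and BAZ and BPTF proteins are the large partners that target them. All 6 genes of this group had peaks of all 3 readers, and the group held 17 of the 56 places shared by all 3. A place is a chain of peaks that overlap by at least 1 bp across lists. Baz1a (ENSMUSG00000035021.13, chr12:54892989-55014348, minus strand), which encodes ACF1, had 16, 9 and 13 peaks. Its exon 23 held the highest pileup of any peak in the 51 genes in each list: 105 for IGF2BP2 (chr12:54899949-54900330, fold 43.0), 37 for YTHDF2 (fold 17.6) and 93 for YTHDC1 (fold 31.6). A coding place in exon 9 (chr12:54934666-54934932 for IGF2BP2) had pileups of 77, 35 and 72 in the same order. The next place by pileup, in the 5' UTR (chr12:54986086-54986302), had 59, 33 and 60 but folds of only 9.61, 6.35 and 6.99, and it also lies in Gm20403, an overlapping annotated gene. An intron 7 place, 1689 nt from the nearest exon at the YTHDC1 summit (chr12:54938572-54938763), had pileups of 14, 12 and 43, and its YTHDC1 fold of 41.3 was the highest of that list in the 51 genes. A YTHDC1 peak in intron 2 had a pileup of 28 and no partner.

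Baz2b (chr2:59899363-60209839, minus strand) had the most IGF2BP2 peaks, 21, and 10 YTHDF2 and 16 YTHDC1 peaks. Coding places in exon 6 and exon 23 had IGF2BP2 pileups of 53 and 43, YTHDF2 pileups of 17 and 19, and YTHDC1 pileups of 12 and 44. The strongest YTHDC1 peak, with a pileup of 54, lay in intron 1 in a stretch that the annotation also assigns to the lincRNA Gm13620 on the other strand. A second intron 1 peak with a pileup of 52 had a fold of only 2.80. Bptf, the largest subunit of the NURF complex, had 5, 4 and 2 peaks, the strongest at the exon 1 stretch with pileups of 30, 18 and 36. Baz1b, the WSTF subunit, had 6, 2 and 7 peaks with pileups of up to 25, 6 and 39. Baz2a and the ATPase gene Smarca5 had 1 or 2 peaks per reader, with pileups of up to 9, 7 and 15.

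CHD remodellers combine an ATPase with chromodomains that read histone tails. IGF2BP2 and YTHDC1 had peaks in all 6 and YTHDF2 in all except Chd8, and the group held 13 places shared by all 3 readers. Chd4 (ENSMUSG00000063870.12, chr6:125095981-125130591, plus strand), the ATPase of the NuRD complex, had 12, 8 and 9 peaks, and all of its YTHDF2 and YTHDC1 peaks overlapped another reader. The strongest had its IGF2BP2 summit 30 nt inside intron 13 (chr6:125106425-125106831, pileup 35, fold 32.1). A place in exon 4 had pileups of 29, 13 and 25, and one at exons 33 and 34 had 21, 14 and 23. Chd2 had 16, 8 and 12 peaks with pileups of up to 20, 6 and 32, and Chd7 had 14, 1 and 7 with up to 24, 3 and 27. Chd1, Chd3 and Chd8 had 2 to 5 IGF2BP2 peaks, 0 or 1 YTHDF2 peak and 3 to 5 YTHDC1 peaks.

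Many proteins of the KMT2 and SETD1 families methylate histone H3 lysine 4, a mark of promoters and enhancers. IGF2BP2 and YTHDC1 had peaks in all 6 genes of these families and YTHDF2 in 5. Exons held 15 of 18, 9 of 9 and 29 of 33 of the summits (IGF2BP2, YTHDF2, YTHDC1). Kmt2d (ENSMUSG00000048154.17, chr15:98831669-98871204, minus strand), an enhancer methyltransferase, had 16 YTHDC1 peaks against 7 of IGF2BP2 and 5 of YTHDF2. At exon 35 the YTHDC1 pileup was 73 (chr15:98850344-98850534, fold 19.5), that of YTHDF2 23 and that of IGF2BP2 21. At exon 24 IGF2BP2 had a pileup of 18, YTHDF2 of 9 and YTHDC1 of 14. The second strongest YTHDC1 peak, in the 3' UTR, had a pileup of 39 with a fold of 3.57 and no partner in the other lists. Setd1b, a catalytic subunit of a COMPASS complex, had a YTHDC1 pileup of 57 and an IGF2BP2 pileup of 15 at an exon 11 place, which also lies in the lincRNA gene Gm26745 on the other strand. Kmt2e had a YTHDC1 pileup of 33 in the 5' UTR and at most 7 for the other readers. Kmt2a, Kmt2c and Setd1a had 1 to 4 peaks per reader, with pileups of up to 16, 7 and 22.

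**Figure D2:**
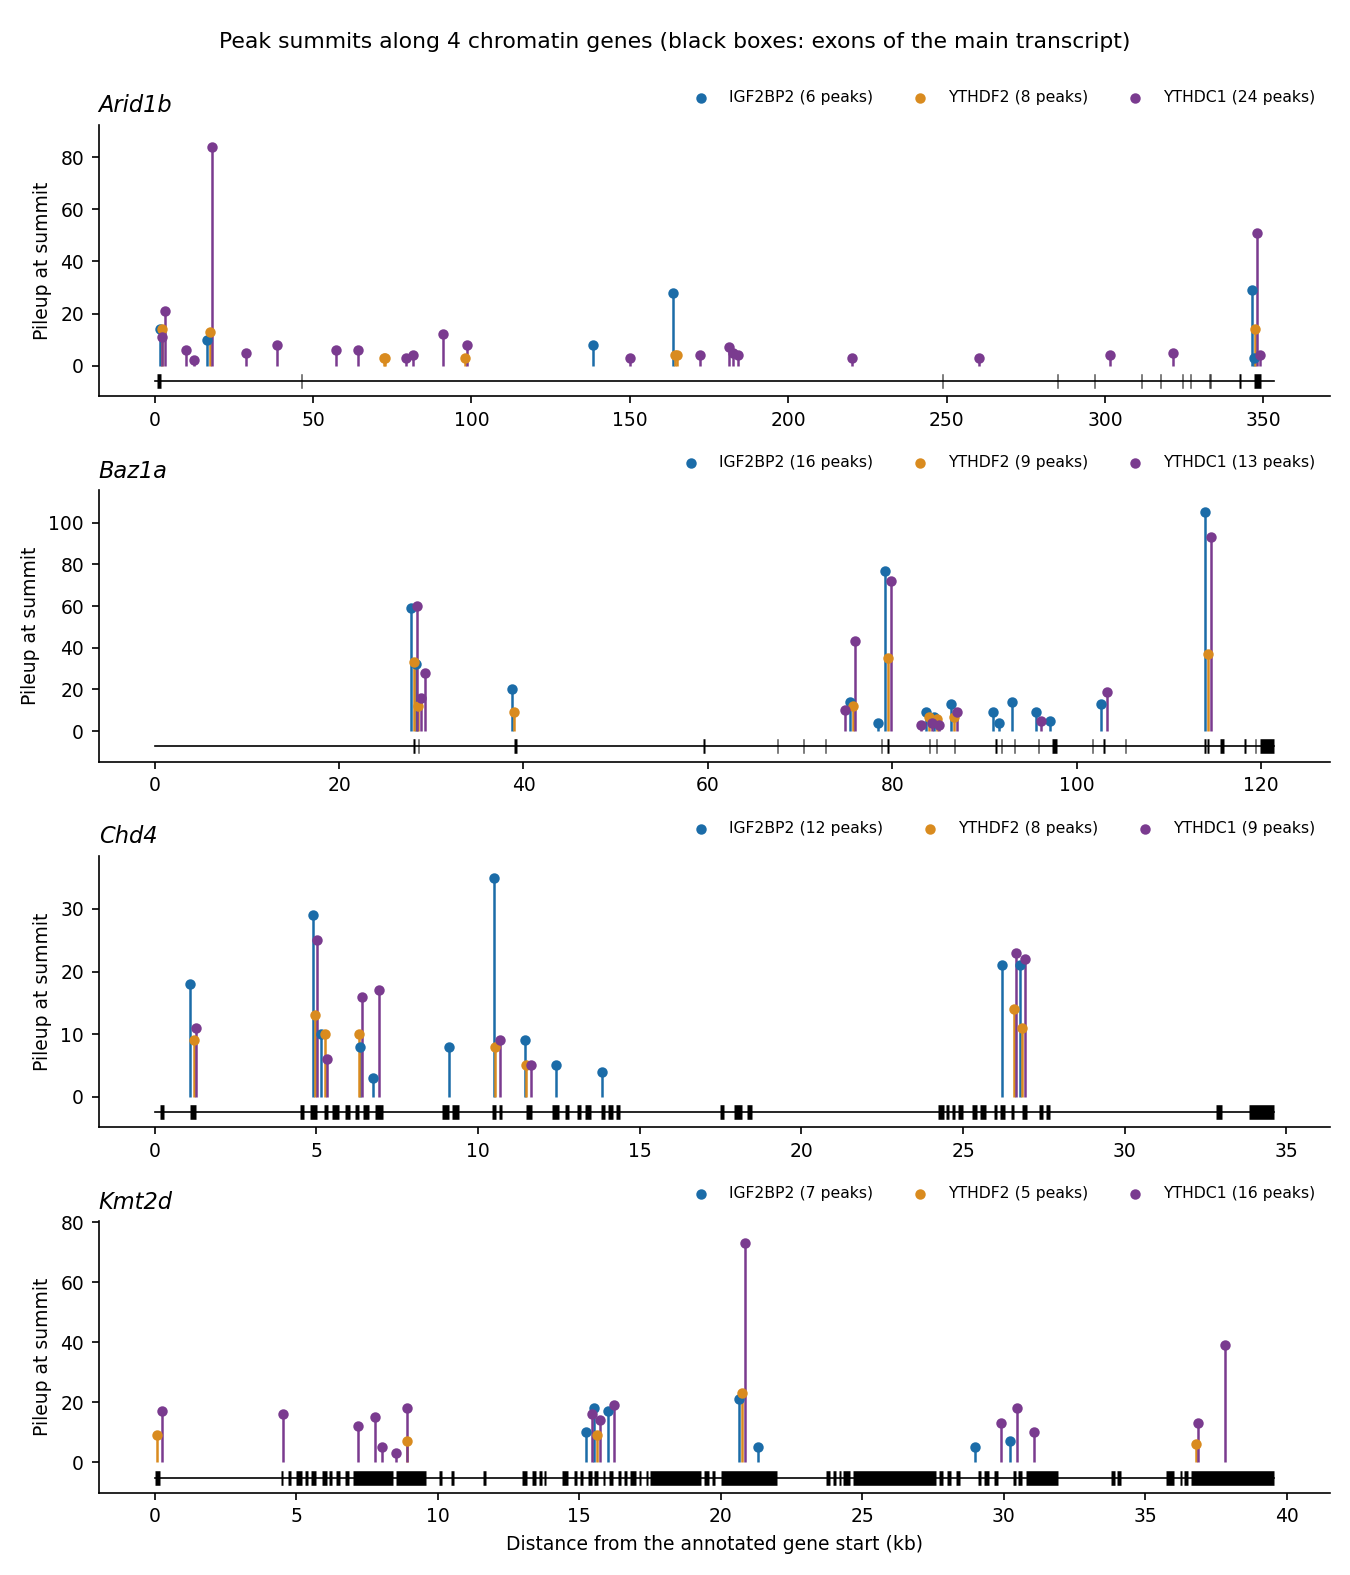
Pileup at each summit (vertical axis) against the distance from the annotated gene start in kb for Arid1b, Baz1a, Chd4 and Kmt2d; black boxes are exons of the main transcript, colours are readers, and lines of different readers are shifted slightly so that none is covered. YTHDC1 summits are spread over the introns of Arid1b, up to a pileup of 84, while the tallest summits of Baz1a (105, 37 and 93) and Kmt2d (21, 23 and 73) stand on exons in all 3 colours.

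The 3 genes for methyltransferases of H3 lysine 36 and lysine 79 had few peaks. Nsd1 (ENSMUSG00000021488.8, chr13:55209782-55318325, plus strand), a lysine 36 methyltransferase, had 1 place of all 3 readers in exon 11, with pileups of 13, 8 and 9. It had 2 further YTHDF2 peaks in coding sequence with pileups of 5 and 2, and a YTHDC1 peak in the 3' UTR with a pileup of 5. Dot1l, which methylates lysine 79, had 1 IGF2BP2 peak (pileup 4) and 3 YTHDC1 peaks (up to 9). Setd2, the lysine 36 methyltransferase that adds the last methyl group, had none.

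Polycomb complexes silence genes through methylation of H3 lysine 27 and ubiquitination of H2A. This group had the sparsest peaks among those with 6 or more genes: 4 for IGF2BP2, 2 for YTHDF2 and 17 for YTHDC1, and 0 places shared by all 3. Of the PRC2 core, Ezh2, the catalytic subunit, had no peak, Eed had 1 YTHDC1 peak with a pileup of 5, and Suz12 had 1 IGF2BP2 peak (pileup 7) and 1 YTHDC1 peak (13). Asxl1 (ENSMUSG00000042548.14, chr2:153345829-153404007, plus strand), a cofactor of H2A deubiquitination, had a 5' UTR place in exon 1 with pileups of 16 for IGF2BP2 and 10 for YTHDC1, and a YTHDC1 peak in exon 5 with 6. Its relative Asxl2 had 1 and 2 weak peaks with pileups of at most 4. Bcor, a subunit of a variant PRC1, held 11 of the 17 YTHDC1 peaks, 9 of them intronic, with a highest pileup of 13.

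In Brd2 the peaks of the 3 readers coincided. The strongest YTHDC1 peaks of the acetyltransferase genes Crebbp and Ep300, in the 5' UTR, overlapped no peak of another reader. Brd2 (ENSMUSG00000024335.20, chr17:34112023-34122634, minus strand), which binds acetylated histones, had 2 peaks of each reader at the same 2 exonic places. The coding place in exon 9 had pileups of 22, 21 and 56 and the 5' UTR place in exon 2 of 25, 22 and 51. These peaks of Crebbp and Ep300, which encode the coactivators CBP and p300, had pileups of 51 and 28. Their IGF2BP2 pileups were at most 6 and 4. An IGF2BP2 peak of Ep300 with a pileup of 4 lay in the same 5' UTR, without overlap. Kat6a had 4, 2 and 4 peaks, all exonic, with pileups of up to 7, 5 and 13.

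Among genes of DNA methylation, the maintenance methyltransferase gene Dnmt1 had 8, 4 and 6 peaks with pileups of up to 16, 8 and 11. Tet3 (ENSMUSG00000034832.15, chr6:83362373-83459084, minus strand), which oxidises methylcytosine, had 3, 3 and 10 peaks. Its YTHDC1 peaks reached 26 in exon 2, with no partner, and 22 in exon 12, where IGF2BP2 had 4 and YTHDF2 had 3. The strongest IGF2BP2 and YTHDF2 peaks of Tet3, with pileups of 7 and 5, shared a 5' UTR place, where YTHDC1 also had a peak. Dnmt3a, the de novo enzyme, had 3, 1 and 1 peaks with pileups of at most 4, and Tet2 had none.

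Deacetylase and corepressor genes had few YTHDC1 peaks. Ncor1 (ENSMUSG00000018501.17, chr11:62316426-62458541, minus strand), a corepressor of nuclear receptors, had 7, 2 and 1 peaks. The strongest, in exon 15, had a pileup of 25 for IGF2BP2 and 10 for YTHDF2, while the single YTHDC1 peak, in intron 1, had 3. A place in exon 19 had pileups of 7 and 5 for IGF2BP2 and YTHDF2, and an IGF2BP2 peak in exon 20 also had 7. Hdac1 had 1 YTHDC1 peak in intron 1 with a pileup of 19, and its paralogue Hdac2 had 2, 1 and 1 peaks with pileups of up to 7. Trim28, the KAP1 corepressor gene, had 2, 1 and 2 peaks at places that did not overlap each other.

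Of the demethylase genes, Kdm6b (ENSMUSG00000018476.7, chr11:69398508-69413675, minus strand), which removes methylation from H3 lysine 27, had 3, 1 and 7 peaks. Its strongest YTHDC1 peaks lay in exon 11 (pileup 31) and in intron 1 (18), the latter overlapping an IGF2BP2 peak with a pileup of 7. The strongest IGF2BP2 peak, with 11, and the YTHDF2 peak, with 7, lay in the 5' UTR. Kdm1a and Kdm5a had 1 or 2 peaks per reader with pileups of at most 9. Ctcf (ENSMUSG00000005698.15, chr8:105636568-105682922, plus strand) had 1 IGF2BP2 peak and 3 YTHDC1 peaks, each with a pileup of 3 and without overlap.

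In the full lists, summits of IGF2BP2 and YTHDF2 lay mostly in coding exons, whereas more of those of YTHDC1 lay in introns. A summit was called exonic when it lay in an exon of any annotated transcript of the gene, and its part was read from the main transcript, the one with the longest complete coding sequence. Exons held 76.0% of the IGF2BP2 summits (95% interval 69.6 to 81.6), 75.8% of those of YTHDF2 (66.1 to 83.8) and 60.9% of those of YTHDC1 (54.2 to 67.2). Over all protein-coding genes the shares were 70.8%, 75.4% and 55.5%, each inside its interval. YTHDC1 had the lowest share there too, while YTHDF2 stood above IGF2BP2. Coding sequence held 69.7%, 64.6% and 43.5% in the 51 genes against 61.4%, 61.0% and 35.2%. The interval of YTHDF2 (54.4 to 74.0) held the value of all genes. Those of IGF2BP2 (63.0 to 75.9) and YTHDC1 (37.0 to 50.2) did not. The 3' UTR held 1.44%, 2.02% and 4.78% against 3.35%, 6.59% and 7.55%. Without Arid1b, which held 24 of the 230 YTHDC1 peaks, the exonic share was 77.2%, 81.3% and 66.5%.

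**Figure D3:**
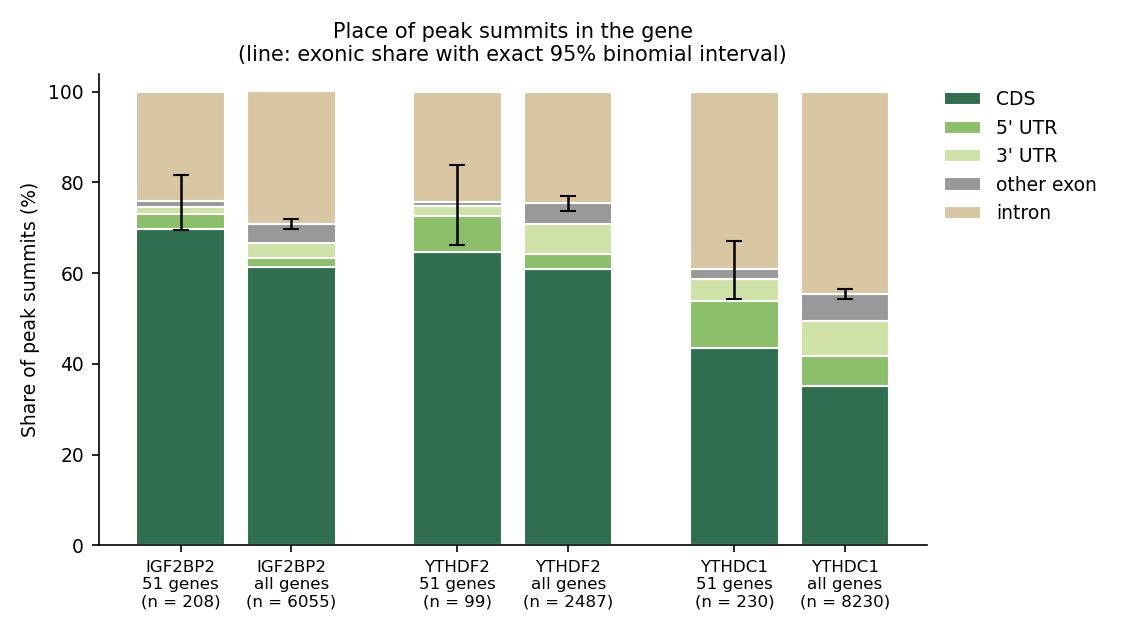
Stacked bars give the share of peak summits (%) in each part of the gene, for the 51 chromatin genes and for all protein-coding genes, and the lines give the exact 95% binomial interval of the exonic share (1 library per reader). The coding share is higher in the 51 genes than in all genes for each reader (69.7 against 61.4, 64.6 against 61.0 and 43.5 against 35.2), and the intronic share is largest for YTHDC1. For YTHDF2 the coding share of all genes lies inside the 95% interval of the 51 genes (54.4 to 74.0).

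YTHDC1 summits stood more often in exon 1. Among exonic summits of the main transcript, exon 1 held 28 of 135 for YTHDC1 (20.7%), 7 of 155 for IGF2BP2 (4.52%) and 6 of 74 for YTHDF2 (8.11%), against 24.5%, 8.45% and 10.7% over all genes. The 28 summits lay in 25 of the 51 genes, 21 of them in the 5' UTR, and 20 had no peak of another reader. Their median pileup was 12 and the highest was 60, in Baz1a. The last exon held 14.8% for YTHDC1, 5.81% for IGF2BP2 and 8.11% for YTHDF2, against 25.7%, 11.4% and 17.6% over all genes.

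Intronic summits of IGF2BP2 lay close to exons, and those of YTHDC1 did not. Within 200 nt of an exon lay 38 of 50 intronic summits for IGF2BP2 (76.0%), 11 of 24 for YTHDF2 (45.8%) and 21 of 90 for YTHDC1 (23.3%). The median distances were 30.5, 239.5 and 1294.5 nt. Over all protein-coding genes the shares within 200 nt were 53.6%, 49.7% and 24.9%. Exons and their 200 nt flanks together held 94.2% of the IGF2BP2 summits of the 51 genes, 86.9% of those of YTHDF2 and 70.0% of those of YTHDC1. The 69 YTHDC1 summits farther inside introns lay in 20 genes, with 21 in Arid1b, 9 in Baz2b and 8 in Bcor. Intron 1 held 36.7% of intronic YTHDC1 summits, 29.2% of those of YTHDF2 and 12.0% of those of IGF2BP2, against 31.1%, 19.0% and 15.8% over all genes, which lie inside the 95% intervals (26.8 to 47.5, 12.6 to 51.1 and 4.53 to 24.3). The median pileup of intronic and exonic peaks was 7 and 8 for IGF2BP2, 5 and 6 for YTHDF2, and 6.5 and 10 for YTHDC1. Whether intronic peaks lie in repeats or draw on multi-mapping reads was not tested.

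**Figure D4:**
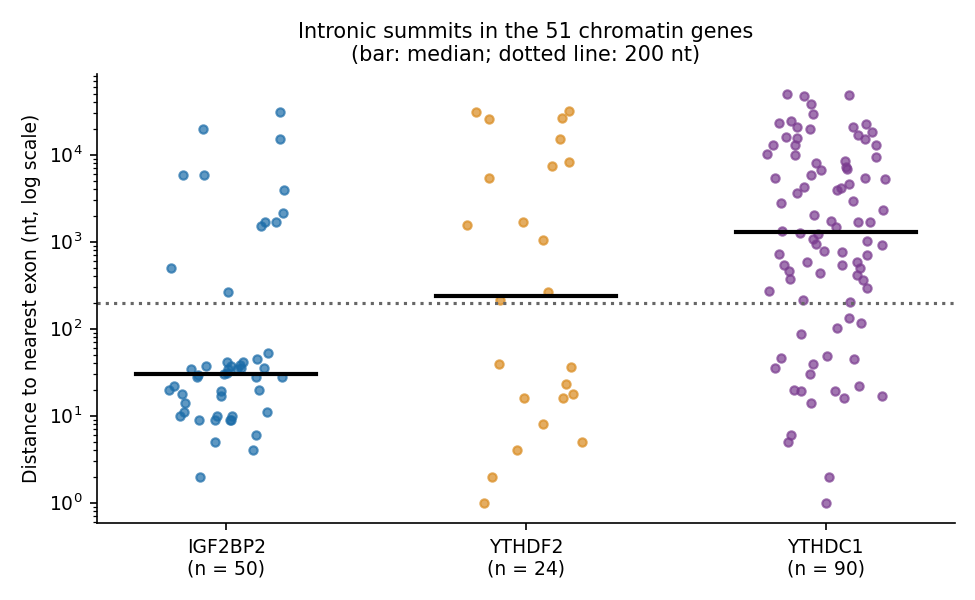
Each point is an intronic summit in the 51 genes, placed by reader (1 library each) and by its distance to the nearest exon in nt on a log scale; bars are medians and the dotted line marks 200 nt. IGF2BP2 points gather near the exon edge around a median of 30.5 nt, while YTHDC1 points spread widely around 1294.5 nt.

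The readers often met at the same base positions. In the 51 genes, 50.5% of the peaks in the IGF2BP2 list (43.5 to 57.5) overlapped a peak of another reader, 84.8% in the YTHDF2 list (76.2 to 91.3) and 42.6% in the YTHDC1 list (36.1 to 49.3). Over all protein-coding genes the shares were 46.0%, 80.0% and 31.6%. Both other readers were overlapped by 26.9%, 55.6% and 24.3%, against 18.4%, 45.2% and 13.5%. Exonic YTHDC1 peaks overlapped another reader in 56.4% of cases, against 39.9% over all genes, and intronic ones in 21.1% against 21.3%. For IGF2BP2 the exonic share was 53.8% against 47.3% and the intronic share 40.0% against 42.9%. For YTHDF2 they were 89.3% against 82.3% and 70.8% against 72.9%, so the intronic shares of all 3 readers were near the background. The lists share 1 input library as far as it was used for calling, and its part in the overlap was not tested.

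The 537 peaks formed 364 places in 48 genes. All 3 readers shared 56 places in 21 genes, of which 39 were exonic in every list. IGF2BP2 and YTHDC1 alone shared 32, IGF2BP2 and YTHDF2 17, and YTHDF2 and YTHDC1 9. YTHDC1 held 132 places by itself, IGF2BP2 103 and YTHDF2 15. At the 56 common places the 3 summits spanned a median of 25.5 bp, with a range of 1 to 327, and 50 bp or less at 40 of them. Baz1a and Chd4 held 8 such places each, Baz2b 6, Smarca4 5 and Dnmt1 4. Peaks with both other readers were also higher: the median pileup for 0, 1 and 2 other readers was 5, 8 and 16.5 for IGF2BP2, and 6, 10 and 11 for YTHDC1. For YTHDF2 it was 5, 4 and 8. The peaks of all protein-coding genes had medians of 4, 7 and 13 for IGF2BP2, 6, 7 and 11 for YTHDC1 and 3, 4 and 7 for YTHDF2, so the pattern is not one of these genes alone.

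Coding summits of YTHDC1 lay in longer exons. Of its coding summits 40.0% were in exons over 400 nt, against 18.6% for IGF2BP2 and 20.3% for YTHDF2. Such exons held 41.8% of the coding bases of the 51 genes, so the IGF2BP2 and YTHDF2 shares were below, and that of YTHDC1 near, the share of bases. Over all protein-coding genes the shares were 34.3%, 17.1% and 23.2% in the same order, with 37.8% of coding bases. The median exon under a coding summit was 226.5 nt for YTHDC1, 162 nt for IGF2BP2 and 175 nt for YTHDF2.

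The share of windows with the core m6A motif was close to that at exonic summits of all genes for IGF2BP2 and YTHDC1. GGAC was searched within 50 bases on either side of exonic summits on the gene strand, and on the opposite strand for comparison. It was found in 39.6% of 154 IGF2BP2 windows (31.8 to 47.8), 51.4% of 74 YTHDF2 windows (39.4 to 63.1) and 40.3% of 134 YTHDC1 windows (31.9 to 49.1). All protein-coding genes gave 42.6%, 41.7% and 42.3%, inside each interval. The opposite strand gave 21.4%, 24.3% and 29.9%. The broader 5 base motif DRACH (A, G or T; A or G; A; C; then A, C or T), some matches of which contain GGAC, was in 86.4%, 85.1% and 74.6%, against 84.1%, 80.7% and 73.2% over all genes. On the opposite strand the shares were 64.9%, 59.5% and 64.9%. The median GC content of the windows was 51.5%, 53.0% and 57.4%, against 53.5%, 54.5% and 58.4%.

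Windows of that size at coding summits were rich in codons for glutamate and aspartate, as in the sequences printed above. A window holds 33 codons. For IGF2BP2 the median share of GA codons was 24.2%, for YTHDF2 27.3% and for YTHDC1 24.2%, while the whole coding sequences of the same genes had medians of 15.0%, 14.4% and 14.3%. The window was above its own gene in 117 of 141 IGF2BP2 windows (83.0%), 56 of 63 YTHDF2 windows (88.9%) and 79 of 99 YTHDC1 windows (79.8%). All protein-coding genes showed it too, with medians of 21.2%, 21.2% and 18.2% and windows above the own gene in 75.1%, 73.8% and 72.7%. Windows that overlap at shared places hold the same sequence and are not independent.

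The share of GA codons was also set against the number of readers on a place. At IGF2BP2 coding summits with 0, 1 and 2 other readers the medians were 21.2%, 27.3% and 33.3%. At YTHDF2 summits they were 15.2%, 21.2% and 30.3%, and at YTHDC1 summits 15.2%, 24.2% and 36.4%. The YTHDF2 value with 0 other readers rests on 7 windows, and the values with 2 include the printed places on which the measure was chosen. With those places left out the medians with 2 other readers were 27.3% for IGF2BP2, the same as with 1, 27.3% for YTHDF2 and 31.8% for YTHDC1. Over all protein-coding genes the medians went from 18.2%, 12.1% and 15.2% with 0 other readers (IGF2BP2, YTHDF2, YTHDC1) to 24.2% with 2 in each list. A share of at least 40% was reached by 18, 15 and 23 windows in 19 genes. That was 12.8%, 23.8% and 23.2% of the windows, against 7.60%, 10.1% and 11.4% over all protein-coding genes. The printed places are among these windows too. With them left out the values were 9.77%, 17.9% and 19.8%, so that of IGF2BP2 came nearer to all protein-coding genes. Besides the printed genes other than Kmt2d, the 19 genes were Arid1a, Baz1b, Bcor, Chd1, Chd2, Chd3, Kat6a, Ncor1, Setd1a, Setd1b, Smarcc1 and Smarcc2.

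**Figure D5:**
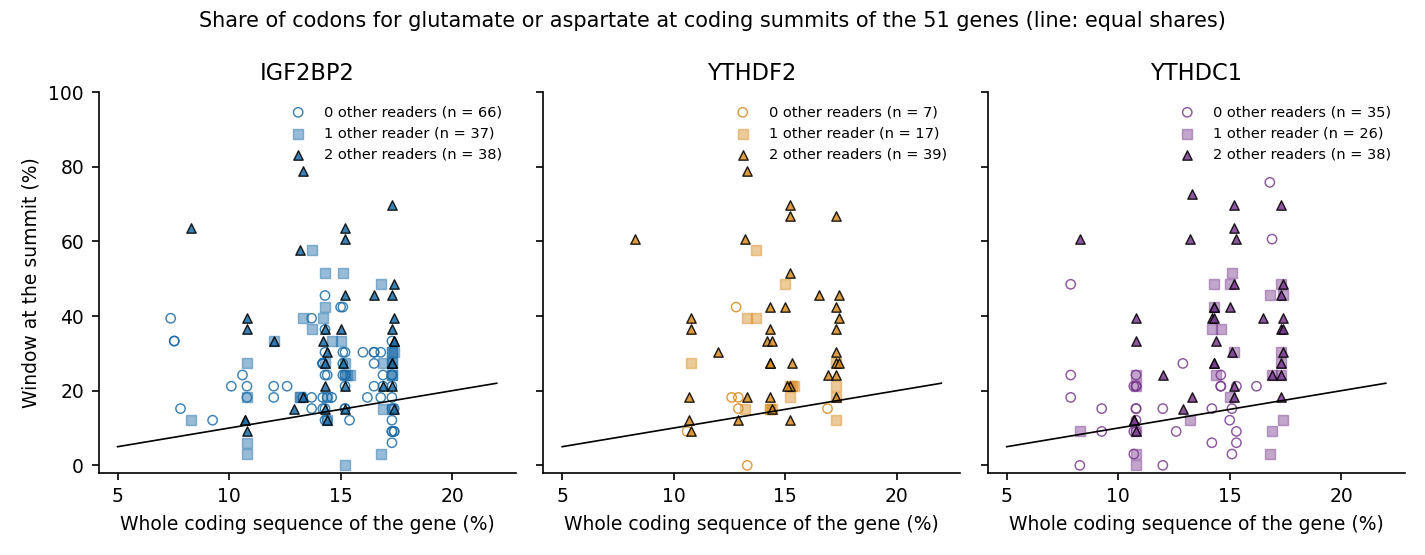
Each point is a coding summit in the 51 genes: the horizontal axis gives the share of codons for glutamate or aspartate in the gene's whole coding sequence (%), the vertical axis that in the window of 50 bases on either side of the summit (%), and the line marks equal shares. Most points lie above the line (117 of 141, 56 of 63 and 79 of 99), and triangles, where both other readers overlap, reach the highest shares in the IGF2BP2 and YTHDF2 panels. The printed places on which the measure was chosen are among the points.

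Of 178 other chromatin genes of the same and related complexes, IGF2BP2 had a peak in 84 (47.2%), YTHDF2 in 45 (25.3%) and YTHDC1 in 93 (52.2%). These shares lie between those of the 51 genes and of all protein-coding genes. All 3 readers had peaks in 36 and none in 63. The Polycomb genes among them had IGF2BP2 peaks in 7 of 28 (25.0%), YTHDF2 peaks in 3 and YTHDC1 peaks in 12. Jarid2, a PRC2 cofactor, had the highest pileup among the 178, with 70 for IGF2BP2, 100 for YTHDF2 and 96 for YTHDC1. Smarca2, the ATPase BRM that alternates with Smarca4, had 63, 20 and 64. Hdac9 had 41, 12 and 80, all intronic, whereas Ncoa1 and Kdm4b, with YTHDC1 pileups of 97 and 96 and IGF2BP2 pileups of 26 and 19, had no YTHDF2 peak.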

How the data were processed

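RNA bound by each reader was measured in 1 library, with 1 input library. UV crosslinking at 254 nm (120 mJ per cm2, 3 exposures) preceded lysis, and stranded libraries of 250 to 450 bp had 20 cycles of amplification, per the labels' protocols. The submitters' processing notes name HISAT2, Trim Galore, bcl2fastq 2.17 and the build GRCm38. The peak caller is not given in the sources used here. The authors deposited per peak a score, a fold (ratio) over background, the −log10 of p and q, the pileup signal and the peak length; depth is unknown. The file headers name pileup and fold, while the names of the p and q columns are unreadable there, and these were read from their position in the peak format.

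Summits were placed in GENCODE M21 (GRCm38) with Python 3.11.15, pandas 2.3.3 and SciPy 1.17.1, and the placement was tested on simulated data. Sequences came from the GENCODE M21 transcripts. The lists give no strand: 24 peaks in 11 of the genes also lie in another annotated gene, 10 of them in its exons. Reads shared by paralogues cannot be traced. Exact binomial (Clopper-Pearson) 95% intervals were used, and no test between readers. The genes, lists and the measures were chosen with earlier results of these data known. Per complex, the gene with the highest pileup is given with all peaks, or over 6 peaks with the 2 strongest per reader; Smarca4 and further peaks named beside these were added after their values were seen. The alternatives were stricter thresholds on −log10 q, fold and pileup, equal list length, and stricter definitions of overlap. Further ones were the midpoint of the peak in place of its summit, exons of the main transcript only, and leaving out summits in another annotated gene.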

Additional observations from a re-analysis of the deposited data

How the results depend on the processing

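Of 108 values recomputed under alternatives, 87 stayed within their interval or within 1.5 times the count, and 21 moved. The alternatives differed in this. Placing peaks by their midpoint left all 16 values the same, as did leaving out summits in another annotated gene (16) and using exons of the main transcript only (3). Equal list length moved 9 values and left 7 the same. Cutting each list to the 2834 peaks with the highest −log10 q left IGF2BP2 114 peaks in 28 of the genes and YTHDC1 84 peaks. All 3 readers then had peaks in 23 genes, IGF2BP2 alone in 1 and YTHDF2 alone in 5. Of all protein-coding genes, 6.02% then had a peak of IGF2BP2, 7.26% of YTHDF2 and 7.93% of YTHDC1. In the 51 genes the YTHDC1 exonic share became 71.4%, against 60.1% over all protein-coding genes. Its overlap in the 51 genes became 51.2%, and the YTHDF2 overlap 70.7%. At a −log10 q of at least 5, IGF2BP2 alone had 2 genes and YTHDF2 alone 1. At a fold of at least 5 YTHDF2 kept 64 peaks, 23 genes had all 3 readers and 1 had IGF2BP2 alone, and a pileup of at least 5 gave 64, 23 and 1 too. At that pileup 34, 26 and 40 of the 51 genes had a peak, against 8.1%, 4.1% and 14.7% of all protein-coding genes. The shares of all genes with all 3 readers or 1 reader alone were not computed at these stricter settings. With an overlap of at least 50% of both peaks, 42.3% of IGF2BP2 and 70.7% of YTHDF2 peaks met another reader, and with summits within 50 bp 42.3% and 69.7%. Leaving out the places of the printed sequences was an alternative chosen after seeing the data. It was applied to 3 shares of windows with more GA codons than their gene, at places with both other readers. None of these moved beyond its interval. Stricter settings keep fewer peaks by construction; the cause of the other moves was not tested. No paired analysis was possible because each reader has 1 library. Depth is unknown, so the absence of a gene from a list does not show that it was not bound.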
